A study of Mus musculus with 100 samples.

Results

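The genes described here are 35 that make and run the lysosome: 7 cathepsins, 10 glycosidases and sulfatases, 6 lipid hydrolases and cofactors, 3 proteins of the lysosomal membrane, 6 subunits or partners of the proton pump and 3 transcription factors of the MiT/TFE family. They were chosen by symbol, as 35 of 32484 genes with a transcript in the tables, and all 35 passed the filter on low values in all 5 tables. RNA was sequenced from fat of mice whose strain label is Adipoq-Cre-Gps2flox/flox in every sample. In that cross the Cre recombinase is driven by the adiponectin promoter, which is active in adipocytes, so the other cells of whole fat keep an intact Gps2, a subunit of the NCoR and SMRT corepressor complexes. Wild type and knockout are told apart only by the sample titles, and controls are not described further.

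The chow set held intra-abdominal fat of mice aged 19 weeks on normal chow, with 3 wild-type and 3 knockout replicates. The 4-week set held intra-abdominal fat of mice aged 11 weeks on a high-fat diet, named for 4 weeks, with 4 and 4 replicates. The 12-week fat set held intra-abdominal fat of mice aged 19 weeks on a high-fat diet, named for 12 weeks, with 3 and 3, and the adipocyte set held purified intra-abdominal adipocytes of the same age and diet name, with 3 wild-type and 2 knockout replicates. The inguinal set held inguinal fat of mice aged 8 weeks from the beta-adrenergic part of the study, with 4 and 4 replicates and no agent or dose given. Diet and its duration stand only in titles, table names and the study's design text. Whether replicates are separate animals is not stated in the labels. The p-values therefore speak only to the spread among these replicates, some of which may be technical.

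The lysosome is the acidic compartment in which cells break down proteins, glycans and lipids delivered by endocytosis and autophagy. The vacuolar ATPase pumps protons into it: its V1 sector hydrolyses ATP, its V0 sector carries protons through the membrane, and most lysosomal hydrolases need the resulting low pH. Tfeb, Tfe3 and Mitf bind E-boxes in the promoters of many lysosomal genes and are held in the cytoplasm by mTORC1 when nutrients are plentiful. In fat, adipocytes express lysosomal acid lipase and use lysosomes for autophagy of lipid droplets and organelles, and macrophages of obese fat are rich in lysosomes that degrade lipid taken up from adipocytes.

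Each replicate rested on 29444602 to 63456837 recovered reads. Gps2 itself did not separate the genotypes in any set, with log2 fold changes of 0.04 to 0.15 in 4 sets and 0.01 in the 4-week set; which exons were deleted is not given here, so these reads check nothing, and the groups are called by their labels. Several libraries stood apart. Chow knockout 1 and 2 were the most alike of all chow pairs (2.41 in chi-square per degree of freedom, where other pairs reached at least 41.6 and libraries of the same replicate at most 1.15) and held summed epididymis and testis markers of 155929.9 and 143786 normalised reads, as wild type 2 did at 43792, against 3.71 to 55.1 in the other chow replicates. In the 12-week fat set these markers summed to 38032 in wild type 1 and to 58002 and 17842 in knockout 2 and 3, against 0 to 29.8 in the others; they were at most 42.6 in the other sets. The defining adipocyte markers were present in every set, with Fabp4 the most abundant of them.

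The members differed widely in level. Compared per kilobase of transcript, as a share of the members' summed wild-type value, Ctsd was highest in the 4 sets other than chow, at 27.3%, 26.7%, 32.3% and 38.6% in the 4-week, 12-week fat, adipocyte and inguinal sets. Ctsd encodes cathepsin D, the main aspartic protease of the lysosome. In chow fat Psap, the precursor of the saposins that present sphingolipids to their hydrolases, was highest at 20.5% (range over replicates 15.6% to 26.9%), ahead of Ctsd at 18.2% (16.8% to 19.8%), and these neighbours overlapped. Ctsd, Psap and Ctsb, which encodes the cysteine protease cathepsin B, together made up 49.4% to 65.4% of the summed level, and the top 5 members 64.8% to 77.3%. At the other end stood Mitf and Atp6v0d2, an alternative V0 subunit known from osteoclasts and macrophages, which was lowest in the chow, 4-week and inguinal sets; its share was 0.0452%, 0.0169% and 0.0104%. By the mean Mitf was lowest in the 12-week fat and adipocyte sets, at 0.0446% and 0.0289%, but without wild type 3 Atp6v0d2 was lowest there too, at 0.0386% and 0.0126%.

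**Figure D1:**
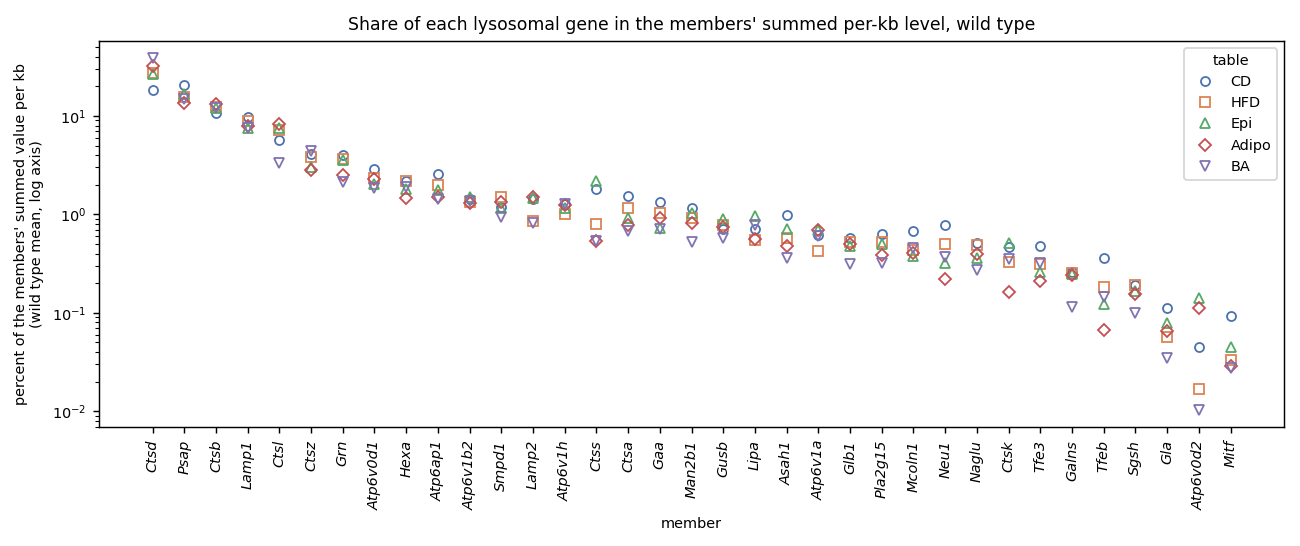
Wild-type level of each member per kilobase, as a percentage of the summed level of the 35 members, on a log axis in each of the 5 sets, with members ordered by their mean level; CD is the chow set, HFD the 4-week set, Epi the 12-week fat set, Adipo the adipocyte set and BA the inguinal set, here and in the other plots. Ctsd, Psap and Ctsb lie at the top in every set, and Mitf and Atp6v0d2 near the bottom.

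Few members differed between the genotypes. In the 4-week set 2 of the 35 passed limma's test at an adjusted p of 0.05: Pla2g15 rose and Gaa fell. Over all genes tested there, 3.45% passed, 1.01% higher and 2.45% lower, so 2 of 35 is near the background share. No member passed in the chow set (0.0% of all genes passed), the 12-week fat set (0.0%), the adipocyte set (0.632%) or the inguinal set (0.0322%). At an unadjusted limma p below 0.05 there were 6 members in chow fat (9.64% of all genes), 12 in the 4-week set (20.8%), 0 in 12-week fat (9.19%), 6 in adipocytes (24.2%) and 3 in inguinal fat (9.04%). edgeR's quasi-likelihood test on recovered reads called the same 2 members in the 4-week set (3.81% of all genes) and 0 in the chow (0.0%), 12-week fat (0.0%), adipocyte (1.15%) and inguinal (0.0242%) sets. DESeq2 called Ctsk and Atp6v1h in chow fat (6.08%), Ctsl, Gaa, Pla2g15 and Neu1 in the 4-week set (10.5%), none in 12-week fat (3.02%), Lamp1, Lamp2, Galns and Mitf in adipocytes (12.7%), and Ctss and Atp6v0d2 in inguinal fat (2.17%). The groups did not overlap for 8 members in chow fat (17.0% of all genes), 7 in the 4-week set (14.0%), 4 in 12-week fat (16.5%), 20 in adipocytes (48.0%) and 1 in inguinal fat (5.48%).

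The direction of the members as a list, described here without a test, varied by set. In chow fat 24 members were higher and 11 lower in the knockout-labelled replicates, with a median log2 fold change of 0.12 against 0.11 over all genes. Under TMM scaling, which moved the median of all chow genes to -0.00, the split was 18 and 17 and the median 0.00. In the 4-week set 11 were higher and 24 lower (median -0.14, all genes -0.09), or 15 and 20 under TMM scaling. In 12-week fat 5 were higher and 30 lower (median -0.22, all genes -0.03), but 16 were higher and 19 lower without wild type 3 (median -0.02), the replicate whose macrophage markers summed to 133392.5 against 63546 to 77581 in the others. In adipocytes 5 were again higher and 30 lower (median -0.39, all genes -0.04), and the median was -0.26 without wild type 3 and -0.22 without knockout 1. In inguinal fat 23 were higher and 12 lower (median 0.05, all genes 0.01), and 11 and 24 without knockout 1 (median -0.06). Since the tissue is bulk RNA, fewer cells of a type and less RNA per cell cannot be told apart.

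**Figure D2:**
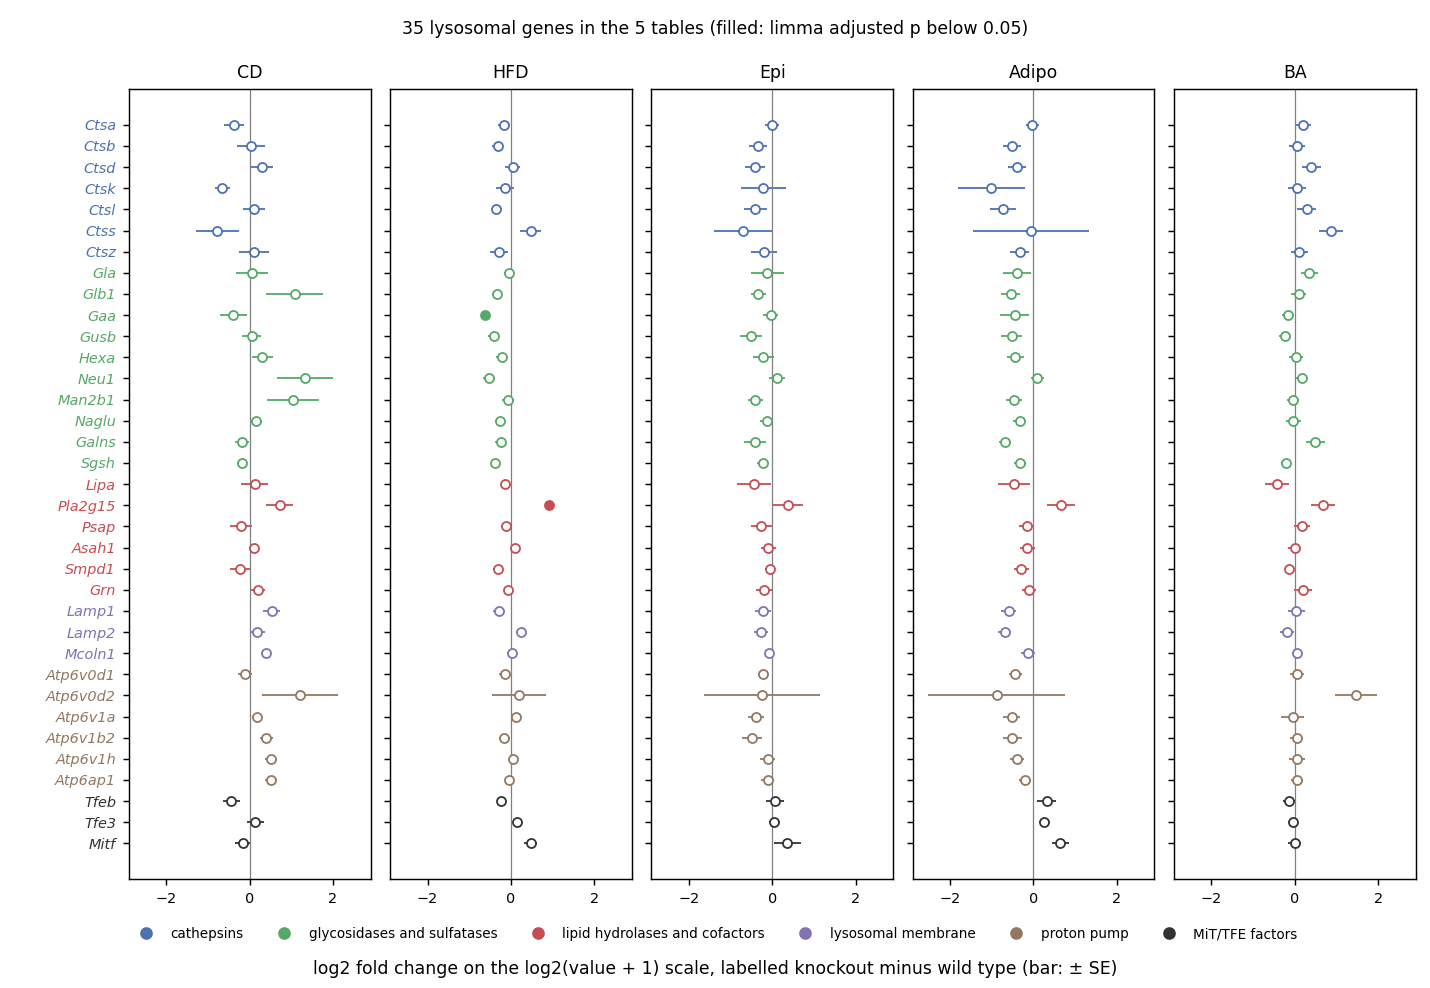
Log2 fold change of each member, labelled knockout minus wild type on the log2(value + 1) scale, with its standard error, in 5 panels by set and coloured by role; filled points passed limma's adjusted p of 0.05. Pla2g15 and Gaa in the 4-week set are the filled points, and most adipocyte values lie below 0.

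The member of smallest p was Pla2g15 after 4 weeks of high-fat diet. Pla2g15 encodes the lysosomal phospholipase A2, which hydrolyses phospholipids in the acidic lumen. Its normalised reads were 946, 837, 976 and 841 in wild type 1 to 4 and 1785, 1828, 1647 and 1545 in knockout 1 to 4. All 4 knockout-labelled replicates lay above all 4 of wild type, by a wide gap. The mean rose from 900.2 ± 71.4 to 1701 ± 129 (SD, n = 4 each), a ratio of means of 1.89 and a log2 fold change of 0.92 ± 0.09 (SE, limma adjusted p = 0.00237). Across the alternative settings and left-out replicates the adjusted p ran from 5.217e-16 to 0.0136. As a share of the members' summed level per kilobase, Pla2g15 stood at 0.519% in wild type, against 1.07% in the knockout-labelled replicates. Its transcript, ENSMUST00000034377, has 6 exons on the plus strand of chromosome 8 (GRCm38, 106150399 to 106164715), that table lists no other transcript of the gene, and no exon of another gene overlaps it.

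Gaa changed in the other direction. It encodes acid alpha-glucosidase, which frees glucose from lysosomal glycogen and is deficient in Pompe disease. Normalised reads were 2414, 2231, 2371 and 2796 for wild type, against 1677, 1736, 1396 and 1576 for the knockout-labelled replicates, and again the groups did not overlap. The mean fell from 2453 ± 241 to 1596 ± 149 (SD, n = 4 each), with a ratio of means of 0.651 and a log2 fold change of -0.62 ± 0.11 (limma adjusted p = 0.0165). The call was lost without knockout 3 (adjusted p = 0.0670), without knockout 4 (0.0711) and with the replicate number as a block (0.0506). All 8 listed Gaa transcripts had a lower mean in the knockout-labelled replicates, with ratios of 0.651 to 0.828, though isoforms share reads. The chosen transcript, ENSMUST00000106259, has 20 exons on the plus strand of chromosome 11 (GRCm38, 119267887 to 119285454).

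The glycosidases and sulfatases, which remove sugars and sulfates from glycoproteins, glycolipids and glycosaminoglycans, were on the lower side in this set, as were 63.1% of all genes. All 10 had a negative log2 fold change, with a median of -0.30, or 8 of 10 under TMM scaling (median -0.21), and Gaa alone passed the test. Sgsh, the sulfamidase of heparan sulfate breakdown, read 506, 531, 541 and 553 in wild type, against 382, 483, 373 and 399 in the knockout-labelled replicates. The groups stood apart, but the log2 difference of -0.39 ± 0.10 did not pass (limma adjusted p = 0.0664). Neu1, the lysosomal sialidase, read 766, 638, 817.5 and 989.65 against 479, 641, 549 and 537. Knockout 2 lay just above the lowest wild-type value, so the groups overlapped, and the difference of -0.53 ± 0.14 did not pass (adjusted p = 0.0760).

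**Figure D3:**
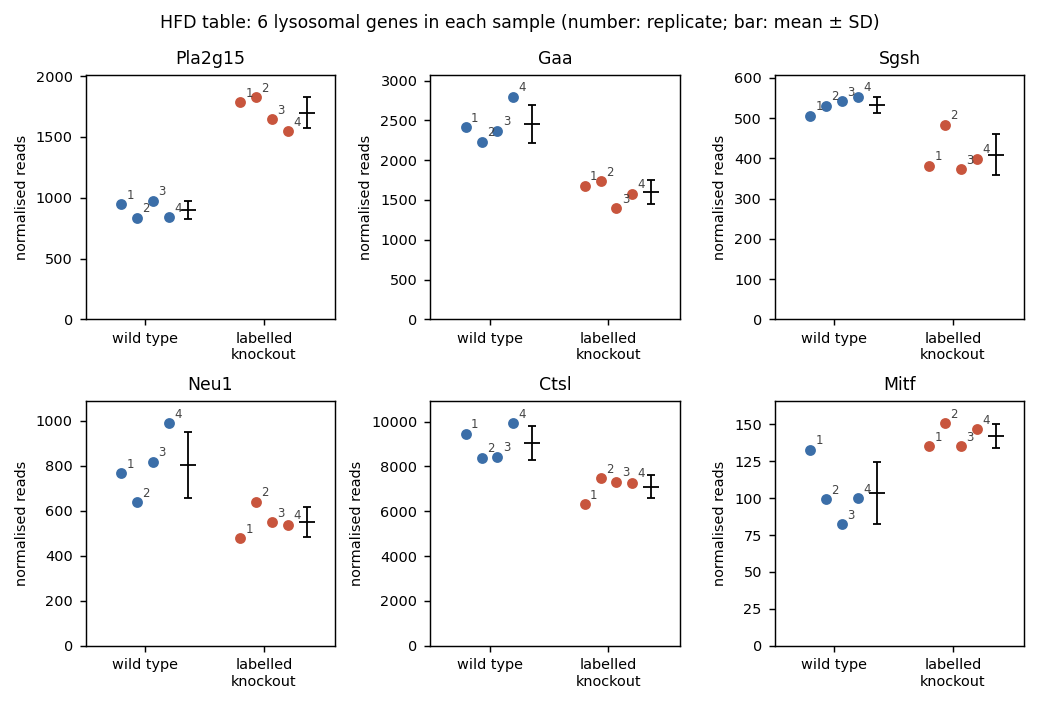
Normalised reads of Pla2g15, Gaa, Sgsh, Neu1, Ctsl and Mitf in each replicate of the 4-week high-fat set, with bars at the mean ± SD (n = 4 each) and replicate numbers at the points. Pla2g15 is separated upward and Gaa downward, Sgsh and Ctsl are separated by smaller gaps, and 1 Neu1 value of the knockout group reaches the wild-type range.

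Among the cathepsins, Ctsl, a cysteine endopeptidase, read 9464.5, 8382, 8429.9 and 9933 in wild type, against 6324, 7468, 7309 and 7272 in the knockout-labelled replicates of the 4-week set. The groups did not overlap, and the log2 difference was -0.35 ± 0.11 (limma adjusted p = 0.113). Of the 7 cathepsins 2 had a positive log2 difference, with a median of -0.18. Ctss, a protease of antigen-presenting cells, was one of them at 0.47 ± 0.25, where 16 of 18 macrophage markers were also higher and 1 passed, as lower. The macrophage sum was 13098 to 24612 in wild type, against 20592 to 21249 in the knockout-labelled replicates; its part in these values was not tested. The 6 pump members had a median of 0.00 and the 3 membrane proteins of 0.02. Mitf read 133, 99.2, 82.5 and 99.8 in wild type, against 135, 151, 135 and 147 in the knockout-labelled replicates. The lowest knockout value was only just above wild type 1, and the log2 difference of 0.47 ± 0.15 did not pass (adjusted p = 0.118). The other members of the set had log2 differences between -0.41, for the beta-glucuronidase gene Gusb, and 0.23, for the membrane glycoprotein gene Lamp2.

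Pla2g15 was also on the higher side in the other 4 sets without passing. In inguinal fat it read 517, 454, 456 and 502 in wild type, against 1594, 549, 572 and 713 in the knockout-labelled replicates. The groups did not overlap, knockout 1 stood far above the rest, and the log2 difference was 0.68 ± 0.29 (limma adjusted p = 0.530), or 0.33 without that replicate. In chow fat the values were 850.3, 494 and 684 against 853, 918 and 1654, where knockout 1 was level with wild type 1 and knockout 3 stood high (0.72 ± 0.32, adjusted p = 0.528). In adipocytes they were 1533, 1946.5 and 2631 against 4258 and 2317, with overlap (0.66 ± 0.33). In 12-week fat the log2 difference was 0.37 ± 0.36, with overlap.

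Promoter sequence bears on the members because the MiT/TFE factors bind the E-box CACGTG. RefSeq promoters on GRCm38.p6, from 250 bases before to 50 bases after the start, were found for 29 of the 35 members, and the letters were searched on both strands, which are alike for this palindrome. CACGTG was in 12 of the 29 (41.4%), against 8.09% of 27025 genes with a promoter in the table. Besides the members with the extended form described below, these were Ctsl, Gaa, Glb1, Lamp1, Naglu and Sgsh. Lamp1 and Gla hold more than 1 copy, as do Ctsa, Ctsd and Mcoln1, which are not shown. The sequences shown are the stretches before the first annotated base, 5' to 3', with the E-box in capitals. They are those of Pla2g15 and Gaa, which passed in the 4-week set, and of Lamp1 and Gla.
Pla2g15, chr8:106150104-106150353, + strand: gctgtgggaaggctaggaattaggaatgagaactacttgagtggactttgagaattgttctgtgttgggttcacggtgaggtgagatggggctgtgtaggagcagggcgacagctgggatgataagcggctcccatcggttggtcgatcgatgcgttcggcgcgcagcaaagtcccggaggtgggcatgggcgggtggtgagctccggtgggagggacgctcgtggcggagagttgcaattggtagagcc
Gaa, chr11:119267713-119267886, + strand: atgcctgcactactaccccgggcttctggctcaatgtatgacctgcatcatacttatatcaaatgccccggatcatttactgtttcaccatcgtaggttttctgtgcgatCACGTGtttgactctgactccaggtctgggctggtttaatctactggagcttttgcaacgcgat
Lamp1, chr8:13158911-13159160, + strand: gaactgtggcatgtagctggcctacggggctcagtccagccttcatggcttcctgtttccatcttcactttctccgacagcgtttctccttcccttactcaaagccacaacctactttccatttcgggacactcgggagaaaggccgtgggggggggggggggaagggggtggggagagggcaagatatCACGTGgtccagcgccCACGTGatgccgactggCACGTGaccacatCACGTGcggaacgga
Gla, chrX:134601126-134601255, - strand: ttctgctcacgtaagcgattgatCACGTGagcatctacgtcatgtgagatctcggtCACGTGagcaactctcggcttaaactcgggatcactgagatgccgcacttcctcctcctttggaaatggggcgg

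Lamp1 has 4 copies close to its start, Gla has 2, both of the extended form, Gaa has 1 and Pla2g15 none in this window. Of the 2 members that passed in the 4-week set, therefore, 1 holds the motif and 1 does not. The extended form, TCACGTGA, was in 6 of the 29 matched members (20.7%, against 1.12% of all genes): Atp6v0d1, Atp6v1a, Ctsa, Ctsd, Gla and Mcoln1. None of these 6 passed in any set under limma, edgeR or DESeq2; Mcoln1 in chow fat and Atp6v0d1 and Atp6v1a in adipocytes had an unadjusted limma p below 0.05. A match is a description of the letters only.

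In chow fat no member passed, and those of smallest p were mostly of the pump and the membrane. Atp6v1h, the regulatory H subunit of the V1 sector, read 952, 959 and 1140.2 in wild type, against 1391, 1351 and 1609 in the knockout-labelled replicates. Atp6ap1, an accessory subunit needed for pump assembly, read 2067, 2350.4 and 2013 against 3229.5, 3229 and 2758. Both genes lay higher in all 3 knockout-labelled replicates, with log2 differences of 0.51 ± 0.14 and 0.52 ± 0.15. Atp6v1b2, the common B subunit of V1, read 1879, 1357 and 1575 against 2157, 2107 and 2034 (0.40 ± 0.16), also without overlap. Atp6ap1 and Atp6v1b2 were highest in the nearly alike knockout 1 and 2. The pump members as a group had 5 of 6 on the higher side, as were 61.7% of all genes. Their median was 0.46, and the exception was Atp6v0d1 at -0.11. Without knockout 1 and 2, 5 of 6 were higher, Atp6v0d2 being the exception, with a median of 0.31 against 0.14 over all genes.

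Of the membrane proteins, Mcoln1, the lysosomal calcium channel mucolipin 1, read 551, 505 and 581 in chow wild type and 728, 722 and 679.99 in the knockout-labelled replicates (0.38 ± 0.12). Lamp1, an abundant glycoprotein of the lysosomal membrane, read 7949, 7774 and 9391 against 13177, 13150.0 and 10079 (0.53 ± 0.20). Both were higher in every knockout-labelled replicate, and both were highest in knockout 1 and 2. Ctsk, the collagen-degrading cathepsin K, went the other way at 289.6, 252 and 281 against 153, 164 and 209 (-0.65 ± 0.17), with no overlap. The limma adjusted p of these 6 members was 0.504 to 0.516. Chow macrophage markers summed to 11708 to 25163 in wild type, against 10333 to 13071 in the knockout-labelled replicates, 17 of 18 lower, and their part was not tested.

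In 10 of the 35 members both nearly alike chow libraries lay above every other chow replicate. The share of all genes that did so was not computed, so the count is not read as a result about the members. The gap was widest in Neu1, Man2b1, Glb1 and Atp6v0d2, picked after their values were seen, of which the last is described further below. Glb1, the lysosomal beta-galactosidase, read 479, 715 and 390.25 in wild type, against 1844, 1899 and 361 in the knockout-labelled replicates. Neu1 read 783, 699 and 792 against 3307, 3366 and 619. Man2b1, the lysosomal alpha-mannosidase, read 1876, 1923 and 1337 against 5696, 5797.5 and 1263. In Glb1, Neu1 and Man2b1 knockout 1 and 2 stood far above every other chow replicate, while knockout 3 lay below all 3 of wild type. The log2 differences were 1.08, 1.33 and 1.04 (limma adjusted p 0.594, 0.540 and 0.578). Without knockout 3 they were 1.87, 2.14 and 1.77, and all 3 passed (limma adjusted p 0.0385, 0.00483 and 0.0223). In that fit 4.13% of all genes passed. Its knockout group was the 2 nearly alike libraries alone, and the genes were picked for being high there, so these calls add no support. With those 2 libraries joined as 1 sample, the log2 differences were 0.69, 0.93 and 0.67 (limma adjusted p 0.967 for each). With knockout 1 and 2 left out they were -0.50, -0.29 and -0.42. The epididymis and testis markers given above were high in the same 2 libraries, and lower but raised in wild type 2, which was the highest wild-type replicate in Glb1 and Man2b1 and the lowest in Neu1; their part was not tested.

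**Figure D4:**
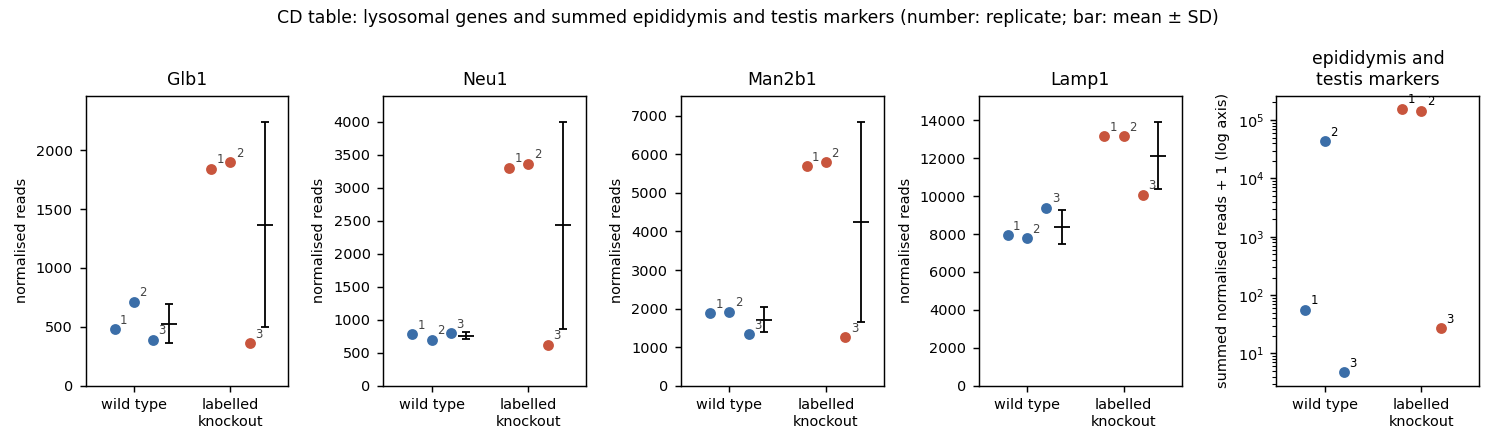
Normalised reads of Glb1, Neu1, Man2b1 and Lamp1, and summed epididymis and testis markers (plus 1, log axis), in each chow replicate, with bars at the mean ± SD (n = 3 each) in the gene panels. Knockout 1 and 2 stand above the rest in Glb1, Neu1 and Man2b1 and hold the highest marker sums, and knockout 3 lies with or below wild type in those 3 genes.

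In fat after 12 weeks no member passed, and the members of smallest p were lower on average. Man2b1 read 8224, 8624.5 and 11913 in wild type, against 6629.7, 8048 and 6798 in the knockout-labelled replicates. The groups did not overlap, and the log2 difference was -0.41 ± 0.18. Atp6v1b2 read 7937, 8961 and 14203 against 7967, 6143 and 7429.9 (-0.49 ± 0.24), and Atp6v1a, the catalytic A subunit of V1, read 5078, 7559 and 8263 against 4989.8, 5541 and 5187.5 (-0.38 ± 0.19). The first overlapped through wild type 1 and knockout 1, and the second through wild type 1. Gusb read 4729.8, 4519 and 8578 against 4117.5, 3585 and 4302 (-0.51 ± 0.26), without overlap and with wild type 3 far above the rest.

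Glb1 read 2584, 2234 and 3359 in wild type, against 1999, 2515.5 and 1923 in the knockout-labelled replicates of the 12-week fat set (-0.33 ± 0.19). Ctsd had a log2 difference of -0.42 ± 0.24. For these 6 members the limma adjusted p was 0.555 to 0.627. All 7 cathepsins, all 6 pump members and all 3 membrane proteins had a negative log2 difference, with medians of -0.34, -0.23 and -0.22, and the 10 glycosidases and sulfatases had 1 positive value. Over all genes 53.1% were lower. Without wild type 3, 3 of 7 cathepsins, 5 of 6 pump members, all 3 membrane proteins and 5 of 10 glycosidases and sulfatases were lower. The largest spread was in genes of macrophages. Ctss read 3692, 3193 and 17336 in wild type, against 6453, 3088 and 2407 in the knockout-labelled replicates, so that wild type 3 alone set its mean, and the log2 difference of -0.70 ± 0.69 became 0.08 without that replicate. Atp6v0d2 read 298, 105 and 2783 against 1365, 409.8 and 93.5 (-0.25 ± 1.38, or 1.08 without wild type 3).

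In purified adipocytes the members of smallest p were lower in the membrane, glycosidase and pump groups. Galns, the sulfatase of keratan sulfate breakdown, read 1319, 1064 and 1166.5 in wild type, against 722 and 749 in the knockout-labelled replicates (-0.68 ± 0.14, limma adjusted p = 0.0864). Lamp2, a membrane glycoprotein needed for fusion with autophagosomes, read 11357, 9182 and 10960.0 against 6852 and 6119 (-0.69 ± 0.16, 0.0986). Lamp1 read 32120, 31596 and 38538 against 20654 and 24336 (-0.60 ± 0.18, 0.137). In all 3 both knockout-labelled replicates lay below every wild type, without passing; 48.0% of all genes in this set had groups that did not overlap. With the replicate number as a block, Galns alone of the 35 members passed limma's test (adjusted p = 0.0469). In that fit 1411 of 14248 genes passed, and wild type 3, which has no partner, dropped out.

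Atp6v0d1, the common d subunit of V0, read 6570.1, 7152 and 7939.5 in wild-type adipocytes and 4991 and 5657 in the knockout-labelled replicates (-0.44 ± 0.15, limma adjusted p = 0.163). Atp6v1a read 4468, 5449 and 6921 against 3618.5 and 4066.5 (-0.53 ± 0.21, 0.197). Mitf went the other way, at 275, 245 and 293 against 483 and 372 (0.65 ± 0.20, 0.137), again with no overlap. Ctss and Atp6v0d2 followed wild type 3 here too: Ctss read 294, 182 and 4094 against 1148 and 293 (-0.06 ± 1.40), and Atp6v0d2 read 75.3, 42.8 and 1659.7 against 216 and 41.7 (-0.88 ± 1.65). The macrophage markers, all 18 of which were measured above the filter, summed to 4396, 3596 and 25025 in wild type, against 14656 and 7227.5 in the knockout-labelled replicates.

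The adipocyte libraries also differed in markers of other cells of fat. Endothelial markers summed to 1587 to 2951 in wild type and to 27107 and 11269 in the knockout-labelled replicates, with 5 of 5 higher. Progenitor and stromal markers summed to 15858 to 24344 against 33573 and 28785, and mesothelial markers to 84.3 to 541 against 1288 and 764. Neutrophil markers went the other way, at 152 to 943 against 41.9 and 37.3. Of the 35 members 30 were lower in these libraries, and the part of the other cell types in that was not tested.

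**Figure D5:**
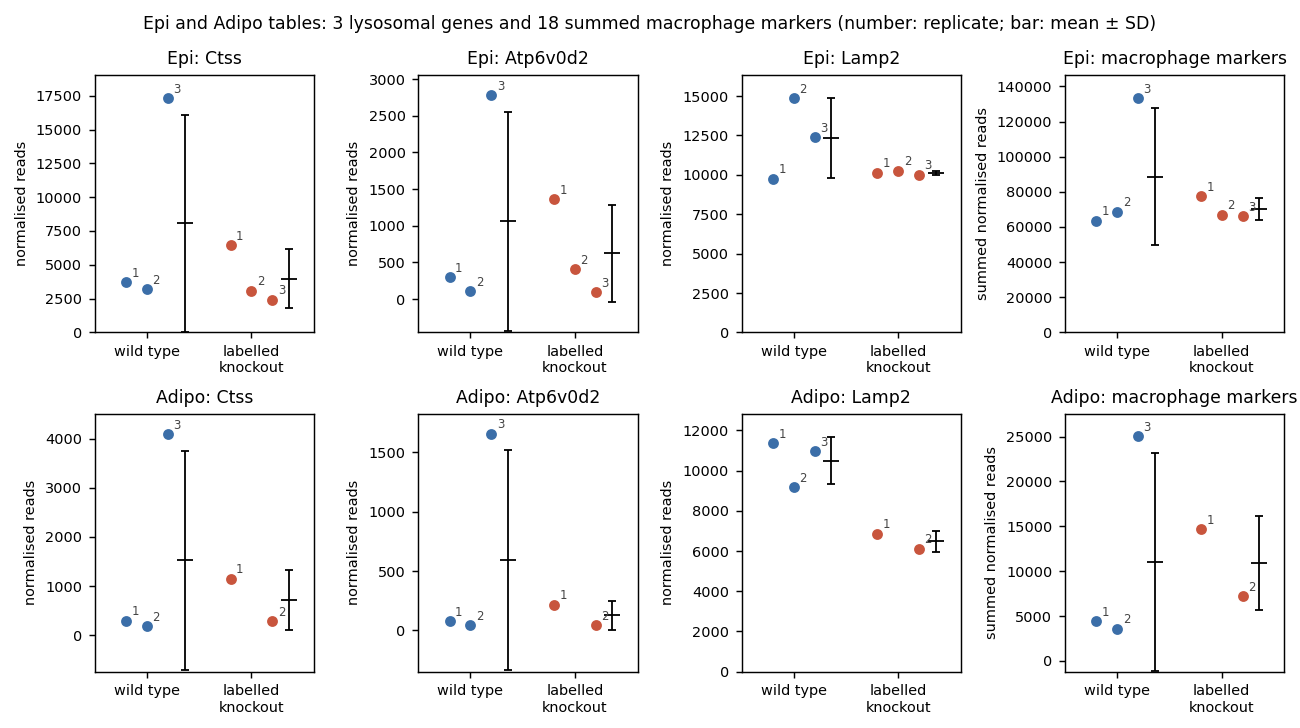
Normalised reads of Ctss, Atp6v0d2 and Lamp2 and the summed 18 macrophage markers in each replicate of the 12-week fat set (top) and the adipocyte set (bottom), with bars at the mean ± SD (n = 3 each in fat; 3 and 2 in adipocytes). Wild type 3 is highest in Ctss, Atp6v0d2 and the marker sum in both sets, and Lamp2 is lower in both knockout-labelled replicates of the adipocyte set.

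In inguinal fat no member passed either. Ctss read 495, 352, 470.2 and 318 in wild type, against 1134, 729, 409 and 851 in the knockout-labelled replicates, where 3 of 4 lay above all of wild type (0.86 ± 0.28, limma adjusted p = 0.339). Atp6v0d2 read 14.8, 12.3, 23.7 and 8.77 against 106, 32.2, 15.7 and 48.8, also with 3 of 4 above (1.47 ± 0.51, 0.390). Both are genes of macrophages and related cells, and the 18 macrophage markers summed to 8579 to 12134 in wild type, against 9918 to 14828 in the knockout-labelled replicates, with 16 of 18 higher and none passing. Ctsd read 48233, 41131, 53231 and 40366 against 85964, 48796, 56339 and 54938 (0.40 ± 0.22), and Galns read 224, 175, 160.31 and 101 against 264, 178, 252 and 216 (0.50 ± 0.23). Gusb was at -0.25 ± 0.13. Ctsd, Galns and Gusb overlapped between the groups. All 7 cathepsins were on the higher side with a median of 0.20, where 51.3% of all genes were higher, but 4 of 7 without knockout 1 (median 0.18). The pump, membrane and glycosidase groups had medians of 0.05, 0.03 and -0.00, and of -0.10, -0.17 and -0.03 without that replicate. The range of adjusted p over Pla2g15 and these 5 members was 0.339 to 0.644.

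The MiT/TFE factors are transcription factors that can raise many lysosomal genes together. Mitf had log2 differences of -0.16 ± 0.18 in chow fat, 0.47 ± 0.15 in the 4-week set, 0.36 ± 0.32 in 12-week fat, 0.65 ± 0.20 in adipocytes and -0.01 ± 0.16 in inguinal fat. Tfeb, the factor best known for the lysosomal gene network, was at -0.44 ± 0.21, -0.23 ± 0.09, 0.06 ± 0.22, 0.32 ± 0.23 and -0.13 ± 0.16 in the same order. Tfe3 was at 0.13 ± 0.20, 0.14 ± 0.08, 0.05 ± 0.13, 0.26 ± 0.13 and -0.04 ± 0.12. None of the 3 passed limma's or edgeR's test in any set, while DESeq2 called Mitf in adipocytes; at an unadjusted limma p below 0.05 stood Mitf in the 4-week and adipocyte sets and Tfeb in the 4-week set. All 3 were on the higher side in adipocytes and in 12-week fat, where Tfeb and Tfe3 changed side when 1 replicate was left out. In the 4-week set Tfeb did not overlap between the groups, at 271, 257.5, 283 and 285 in wild type, against 238, 211, 250.5 and 235 in the knockout-labelled replicates. The transcript level of these factors does not show their location in the cell, through which mTORC1 is known to act on them.

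The 2 genes for the d subunit of V0 differed in level and spread. Atp6v0d1 lay between -0.44 and 0.05 in log2 difference over the 5 sets, at -0.11 ± 0.16, -0.15 ± 0.14, -0.22 ± 0.13, -0.44 ± 0.15 and 0.05 ± 0.17. Atp6v0d2 ranged from -0.88 to 1.47, with standard errors from 0.51 to 1.65. In chow fat Atp6v0d2 read 81.3, 44.3 and 14.5 in wild type, against 152, 161 and 27.3 in the knockout-labelled replicates (1.20 ± 0.91), high in knockout 1 and 2. In the 4-week set it was at 0.19 ± 0.65. Ctsk was at -0.65 ± 0.17 in chow fat, -0.14 ± 0.22 in the 4-week set, -0.21 ± 0.54 in 12-week fat, -1.01 ± 0.79 in adipocytes and 0.05 ± 0.21 in inguinal fat. Ctss in chow fat was at -0.78 ± 0.51, where wild type 1 read 1856 and the other 5 replicates 435 to 752.

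Whether the genotype difference itself changed between sets was tested as an interaction for 3 pairs of sets, which were normalised separately. No member passed limma's test for 4-week minus chow (0.0% of all genes), 12-week minus 4-week (0.0%) or adipocyte minus 12-week fat (1.28%). At an unadjusted p below 0.05 there were 9, 4 and 0 members (17.2%, 15.7% and 12.0% of all genes). The smallest p in the first pair were those of Atp6ap1 (-0.57 ± 0.15, adjusted p = 0.185), Lamp1 (-0.82 ± 0.24, 0.194) and Neu1 (-1.86 ± 0.63, 0.204). Without chow knockout 3, Lamp1, Glb1, Neu1, Man2b1 and Atp6ap1 passed, where 8.07% of all genes did. The chow knockout group was then only the nearly alike pair of libraries, so these calls rest on that pair. In the second pair they were Gaa (0.58 ± 0.20, 0.217), Neu1 (0.65 ± 0.24, 0.237) and Lamp2 (-0.49 ± 0.19, 0.242), and in the third Lamp2 (-0.43 ± 0.24, 0.524), Lamp1 (-0.38 ± 0.26, 0.619) and Smpd1, the acid sphingomyelinase (-0.24 ± 0.20, 0.710). The 4-week set differs from the chow and 12-week sets in age, so diet, its duration and age cannot be told apart.

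Genes around the lysosome were described from lists of 30 other hydrolases, 24 other membrane proteins, 17 other pump subunits, 22 sorting genes, 26 autophagy genes, 27 genes of mTORC1 and nutrient sensing, and 12 genes of lipid-laden macrophages. Only in the 4-week set did any pass limma's test, where 3.45% of all genes passed, 1.01% as higher and 2.45% as lower. Ctsc, the dipeptidyl peptidase that activates granule proteases, rose from 1511 ± 339 to 2478 ± 229 (SD, n = 4 each; 0.74 ± 0.16, adjusted p = 0.0396) as 1 of 30 hydrolases. Of the 23 membrane proteins tested 3 fell: Ostm1, the partner of the chloride transporter ClC-7, from 821 to 529 (-0.62 ± 0.11, 0.0221), the calcium channel gene Tpcn1 from 1083 to 824 (-0.39, 0.0388) and Scarb2, the receptor that carries glucocerebrosidase to the lysosome, from 2269.7 to 1733.5 (-0.39, 0.0439). Of the 26 autophagy genes 2 fell, the autophagy receptor Optn from 1483 to 725 (-1.01 ± 0.16, 0.0115) and the phosphoinositide-binding Wipi1 from 659 to 473 (-0.48 ± 0.08, 0.0146). In the same set edgeR called 0 hydrolases, 1 membrane protein, 2 autophagy genes and 1 gene of mTORC1 (3.81% of all genes), and DESeq2 called 3 hydrolases, 3 membrane proteins, 4 autophagy genes and 0 to 2 of each other list (10.5% of all genes). In the other sets limma and edgeR called 0 genes of any list, while DESeq2 called 0 to 4 a list and 0 to 7 a list had an unadjusted limma p below 0.05; over all genes these shares were 2.17% to 12.7% and 9.04% to 24.2%. Optn was also lower without overlap, and without passing, in chow fat (-0.86 ± 0.18, adjusted p = 0.504) and 12-week fat (-0.68 ± 0.17, 0.380).

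Without a test, the list medians are given in the order chow, 4-week, 12-week fat, adipocyte and inguinal, beside 0.11, -0.09, -0.03, -0.04 and 0.01 over all genes. The other hydrolases had medians of 0.06, -0.13, -0.15, -0.22 and -0.03, and the other membrane proteins of 0.09, 0.01, -0.16, -0.19 and 0.05. Sorting genes had medians of 0.03, -0.03, -0.07, -0.18 and -0.01, autophagy genes of 0.08, -0.08, 0.03, -0.09 and 0.01, and mTORC1 genes of 0.11, -0.08, 0.01, -0.08 and -0.00. The genes of the lipid-laden macrophage list are not particular to macrophages. Fabp4 is also among the adipocyte markers, and Lpl and Cd36 averaged 849126 and 205521 normalised reads in wild-type adipocytes. That list had wider medians of 0.12, 0.05, -0.39, -0.56 and 0.74. For the other pump subunits they were 0.22, -0.20, -0.00, -0.40 and 0.04, with 15 of 17 higher in chow fat, 14 of 16 lower in the 4-week set and 14 of 16 lower in adipocytes. This list was not counted under TMM scaling. Over all genes 61.7% were higher in chow fat, and 63.1% and 53.3% were lower in the 4-week set and in adipocytes. The 6 pump members had 5 higher, 3 higher and 0 higher in these sets. Of the other pump subunits, Atp6v1g1, a stalk subunit of V1, read 692, 818 and 935 in chow wild type. In the knockout-labelled replicates it read 2094, 2118 and 1304 (1.15 ± 0.24, limma adjusted p = 0.504), highest in the nearly alike knockout 1 and 2. In inguinal fat 10 of 11 lipid-laden macrophage genes were higher, as were 51.3% of all genes. The smallest p of that list was in the lipid droplet coat gene Plin2, at 29340.0 ± 7501 against 56528 ± 12903 (SD, n = 4 each, 0.96 ± 0.24, limma adjusted p = 0.1995). Sqstm1, the autophagy receptor p62, read 4089.6, 3743, 4013 and 3179 there against 7356, 6289.6, 5889 and 5800.2, without overlap (0.75 ± 0.15, 0.105). Neither passed.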

How the data were processed

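Messenger RNA of mouse fat and adipocytes was sequenced with a stranded kit, per the labels' protocols; use of the strand in counting was not given in the sources used here. The deposited tables give a size-factor-normalised signal for every Ensembl transcript, that is, read counts scaled by the authors library by library. Tools listed without role or setting in the submitters' processing notes are DESeq 1.8.3, HTSeq 0.5.3, SAMtools, STAR 2.4.0k and bcl2fastq 2.17, with the build GRCm38.p4. Of 100 samples 99 were used, grouped by title; 1 column matched no sample and was not used, and adipocyte knockout 3 was not analysed here. In the chow, 4-week and inguinal tables the 4 libraries of a replicate were averaged. Whole reads, within a tolerance of 0.01 of a read, were recovered in 96 libraries and not taken in 3.

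GENCODE M21 gave symbols; 698 of 97669 transcripts had no gene (0.321% of the signal), and 54 identifiers that repeated a symbol were dropped. A read can be listed under several isoforms, so 1 transcript per gene was used, that of highest mean. Of the 35 members 8 share exon bases with another gene, from 0.694% (Ctsz) to 38.0% (Ctsd) of the transcript, and such reads cannot be told apart. Tables were normalised separately and tested one by one with limma 3.58.1 in R 4.3.3 (trend and robust moderation, log2(value + 1), mean of 10 or more, genotype only, Benjamini-Hochberg over all genes at 0.05). The log2(value + 1) scale understates changes of low genes. edgeR 4.0.16 and DESeq2 1.42.0 on recovered reads, TMM scaling, limma with neither trend nor robust moderation, no filter or a minimum of 50, pseudocounts of 0.5 and 5, summed transcripts, 1 library per replicate, a replicate block, joined or left-out chow and 4-week libraries, and each replicate left out were alternatives; leaving out chow knockout 1 and 2 together was added after seeing the data. The fits were tested on simulated data.

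No pairing of the 12-week fat and adipocyte samples is stated. Deviations from group means of same-numbered samples correlated at 0.293 to 0.595 for wild type, and at 0.269 and 0.106 for knockout 1 and 2. The difference between these sets was tested without pairing. With the sample number as a block, no member passed limma's test either. The members and lists were chosen with earlier results of these data known. Named with values were members that passed or, up to 6 in a set, those of smallest p, a fixed set of 7 members in all sets, the 3 of smallest p for each difference, and, of other lists, genes that passed or some of those of smallest p. Promoters are RefSeq's.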

Additional observations from a re-analysis of the deposited data

Results flagged for a closer look

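In 140 groups of 4 replicates, 10 had 1 replicate far from the other 3, by the gap relative to the group's range. Chance alone flags about 1 in 20 separate groups, and the total was near that. The groups share the same replicates, however, so they are not separate, and the flags were not spread evenly. In inguinal fat 6 of the 10 were knockout 1, each time as the highest: Ctsb at 43872 normalised reads against 29107 to 30863, Lamp1 at 14431 against 7973 to 8622, Pla2g15 at 1593.6 against 549 to 713, Atp6v0d1 at 2493.7 against 1508 to 1582.5, Atp6v1h at 2225.6 against 1268 to 1338, and Atp6ap1 at 2252.4 against 1624 to 1706. Also in inguinal fat, Gla stood high in wild type 3 at 74.375 against 55.2 to 58.3, and Tfe3 stood low in knockout 3 at 492.34 against 603 to 626. In the 4-week set Glb1 was high in knockout 2 at 706.93 against 607 to 609.62, and Asah1, the acid ceramidase, was high in knockout 4 at 1175.2 against 1059 to 1072.5.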

How the results depend on the processing

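The 3 replicates or fewer in most groups, and 2 in adipocyte knockout, limit what could be detected. Pla2g15 in the 4-week set kept its call under every alternative run; Gaa lost it with the replicate block (log2 fold change -0.62, adjusted p = 0.0506) and without knockout 3 or 4. No pairing of wild type and knockout by replicate number is stated. Deviations of same-numbered samples correlated at -0.27, 0.53 and 0.51 in chow fat and at -0.42 to 0.06 in the 4-week set. In the other sets these correlations had both signs, from -0.52 to 0.40. Signs were mixed within every set, so the correlations do not settle whether the numbers pair. With the replicate block, 1 member and 272 genes passed in the 4-week set and 1 member and 1411 genes in adipocytes, where the block drops wild type 3, which has no partner; Ctss was then at 1.32 and Atp6v0d2 at 0.74.

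DESeq2 called 2, 4, 4 and 2 members in chow, 4-week, adipocyte and inguinal sets, and 949, 1474, 534, 1805 and 270 genes in chow, 4-week, 12-week fat, adipocyte and inguinal sets. For adipocytes 143 genes passed with TMM scaling, 0 without trend or robust moderation, 391 without a filter and 164 with edgeR; for inguinal fat 1, 2 and 2 under the first 3 of these, 7 with summed transcripts and 1 with 1 library per replicate; for chow fat 1 without trend or robust moderation. With chow wild type 1 and 2 out, Tfe3 was at -0.10 and Ctss at 0.18; with knockout 1 and 2 out, Mitf was at 0.014, Atp6v0d1 at 0.092 and Atp6v0d2 at -0.45. Ctsk in the 4-week set was at 0.017 without wild type 1 and knockout 1, and Mitf in inguinal fat at 0.056 with summed transcripts. The cause of these changes was not tested.

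With 1 replicate left out, members passing ran from 0 to 3 in chow fat (3 without knockout 3), from 1 to 5 in the 4-week set (5 without wild type 1) and from 0 to 5 for 4-week minus chow. The highest counts for chow fat and for 4-week minus chow came without chow knockout 3. The nearly alike pair was then the whole chow knockout group. Genes passing ran from 0 to 648 in chow fat, 126 to 1178 in the 4-week set, 0 to 22 in 12-week fat, 3 to 718 in adipocytes and 0 to 9 in inguinal fat. Log2 fold changes that changed sign ran as follows. In chow fat Tfe3 ran from -0.035 to 0.25. In the 4-week set Ctsk ran from -0.26 to 0.053 and Atp6v0d2 from -0.28 to 0.71. In 12-week fat Tfeb ran from -0.15 to 0.26, Tfe3 from -0.015 to 0.15, Ctss from -1.14 to 0.082, Ctsk from -0.71 to 0.22 and Atp6v0d2 from -1.28 to 1.08. In adipocytes Ctss ran from -1.04 to 1.32 and Atp6v0d2 from -2.05 to 0.74. In inguinal fat Tfe3 ran from -0.088 to 0.038, Mitf from -0.10 to 0.11, Ctsk from -0.081 to 0.23 and Atp6v0d1 from -0.13 to 0.11. Of the log2 fold changes of named members under the other alternatives, 650 kept their direction and side of the threshold. There 9 changed direction, 11 gained a call and 1 lost it. With 1 replicate left out, 356 kept both, 26 changed direction, 5 gained a call and 2 lost it.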
